A study of Mus musculus with 6 samples.

Results

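Interferon regulatory factors outside the ISGF3 complex were followed in RAW264.7, a mouse macrophage-like cell line, as the genes Irf1, Irf2, Irf4, Irf5, Irf7 and Irf8. The 6 genes were taken by name from a deposited table of 54532 genes, and all 6 passed the filter on low counts that left 12491 genes to test. Bulk RNA was sequenced in 6 libraries: 3 of RAW264.7 with the genotype WT and no shRNA recorded, called control, and 3 of the genotype ERMAP Knockdown with the treatment shRNA, called libraries labelled ERMAP shRNA. Cells of both groups grew in DMEM with serum. The protocol text attached to every sample, controls included, speaks of a lentivirus carrying ERMAP shRNA, so the labels leave unclear whether control cells were transduced, and no non-targeting shRNA is described. Nothing in the labels says whether replicates were separate cultures, and the p-values below reflect only how these libraries scatter, a scatter that may be technical. The series' design text gives the aim as finding genes that differ after knockdown of ERMAP.

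Interferon regulatory factors (IRFs) are transcription factors that share a DNA-binding domain with conserved tryptophans and recognise repeats of GAAA. Irf9 is the DNA-binding part of ISGF3, the complex that carries the type I interferon signal to the nucleus. The members studied here act around it: Irf7 is the chief driver of interferon-alpha genes and is itself switched on by interferon, Irf1 activates genes of the interferon-gamma response, and Irf2 binds the same sites as Irf1 and often opposes it. Irf5 works downstream of Toll-like receptors in macrophages, Irf8 sets the identity of macrophages and dendritic cells together with PU.1, and Irf4 is best known in lymphocytes and in alternatively activated macrophages.

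The start-site regions of the members are shown first, to show which interferon motifs each one holds in its letters. RefSeq windows on build GRCm38.p6, each of 300 bases (250 before and 50 after an annotated start), were found for all 6 genes, 8 windows in all. They were searched on both strands for GAAA repeated after NN (any 2 bases), the core of the interferon-stimulated response element (ISRE), and for TTCNNNGAA, the site of STAT dimers (GAS). Capitals mark matches to either motif. Irf7 is given whole because it is the member that changed, and the other 3 as 60 bases around a match.
Irf7, chr7:141266375-141266674, minus strand: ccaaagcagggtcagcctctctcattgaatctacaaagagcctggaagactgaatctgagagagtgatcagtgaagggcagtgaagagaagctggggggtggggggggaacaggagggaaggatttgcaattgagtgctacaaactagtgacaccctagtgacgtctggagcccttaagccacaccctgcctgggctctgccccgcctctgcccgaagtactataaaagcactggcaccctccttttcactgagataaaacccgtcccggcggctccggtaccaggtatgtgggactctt
Irf2, chr8:46739495-46739554, plus strand: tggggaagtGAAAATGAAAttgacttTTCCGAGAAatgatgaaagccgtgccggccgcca
Irf1, chr11:53769898-53769957, plus strand: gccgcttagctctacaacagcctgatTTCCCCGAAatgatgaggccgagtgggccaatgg
Irf8, chr8:120736161-120736220, plus strand: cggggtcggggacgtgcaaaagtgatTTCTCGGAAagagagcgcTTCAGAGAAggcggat

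Irf2 held 1 ISRE match and 1 GAS match, Irf1 held 1 GAS match and Irf8 held 2. The windows of Irf4, Irf5 and Irf7 held neither motif in these letters, nor did the second windows of Irf1 and Irf8. The NF-kB consensus occurred once each in the first windows of Irf1 and Irf2 and overlapped neither of the other motifs. Of all 32851 windows of this length, 3.4% held the ISRE letters, 8.3% the GAS letters and 8.5% the NF-kB consensus. A match is a description of letters, and no match says nothing about the factor that binds such sites.

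Several facts about the libraries bear on the members. Summed counts ranged from 13447021 to 16602734 per library. Ermap, the gene named in the label, was not lower under the shRNA label: it had 12, 12 and 3 counts in control and 10, 21 and 14 under the shRNA label (log2 fold change 0.81, SE 0.52, n = 3 per group, edgeR adjusted p = 0.929). Directions below are therefore those of the labels. Control replicate 1 stood apart, with 3.69% of counts from mitochondrial genes against 1.71% to 2.18% in the other 5 libraries. Its deviation from the other controls fell with transcript GC content (Spearman rho -0.77 over protein-coding genes, a description, since genes are not replicates). The deviation of labelled replicate 2 from the other labelled libraries also fell with GC content (rho -0.469). In the remaining libraries rho was 0.248 to 0.701. Against the mean of the other controls, control replicate 1 was lower by log2 values of -1.38 for Irf7, -0.38 for Irf5, -0.37 for Irf1, -0.37 for Irf8 and -0.08 for Irf4, and higher by 0.21 for Irf2. Transcript GC content was 55.4% for Irf7, 55.7% for Irf5, 52.8% for Irf1 and 51.7% for Irf8, against 47.6% for Irf4 and 46.4% for Irf2. With GC offsets in the edgeR fit the log2 fold change of Irf7 was 4.68 (adjusted p = 1.21e-06), and that of Irf5 was -0.01 (adjusted p = 0.977). Of 8 macrophage markers 7 were detected, with summed levels of 6600 to 6890 CPM in control and 6670 to 6780 CPM under the shRNA label, and Mertk had 0 counts. Lyz2 and Csf1r made up most of that sum. Of the 7, Fcgr1, an Fc receptor for IgG, was called, with 28.6 ± 2.34 CPM in control and 89.0 ± 1.89 CPM under the shRNA label (n = 3, SD, log2 fold change 1.64, SE 0.10, edgeR adjusted p = 0.000116). Lists of B cell, T cell, plasmacytoid and conventional dendritic cell, neutrophil, erythroid, fibroblast and epithelial markers never exceeded 2.17 CPM in sum. Ms4a1, Pax5, Flt3, Cd3e and Ly6g among them had 0 counts in all 6. In bulk RNA, fewer cells with a transcript and less transcript per cell cannot be told apart.

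Irf7 was the 1 member that rose, about 27-fold, while Irf1, Irf2, Irf4, Irf5 and Irf8 did not pass the test. Across all tested genes 1.01% were called higher and 0.136% lower (edgeR quasi-likelihood test, Benjamini-Hochberg adjusted p under 0.05), against 1 of 6 members higher and 0 lower. The members, and the lists below, were chosen with earlier results of these data known. Setting their calls beside the shares over all tested genes is therefore a description only. Without control replicate 1 the shares were 2.67% and 2.19%, and the members again gave 1 higher and 0 lower. The log2 fold changes of the members had a median of 0.17, against -0.01 over all tested genes, and all 6 were above 0, though Irf2, Irf4 and Irf5 each fell below 0 in at least 2 alternatives. In CPM (counts scaled to library size, with TMM factors), 3 of 6 members had groups that did not overlap, each with the labelled group higher, where 7.74% of all tested genes did so in that direction.

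**Figure D1:**
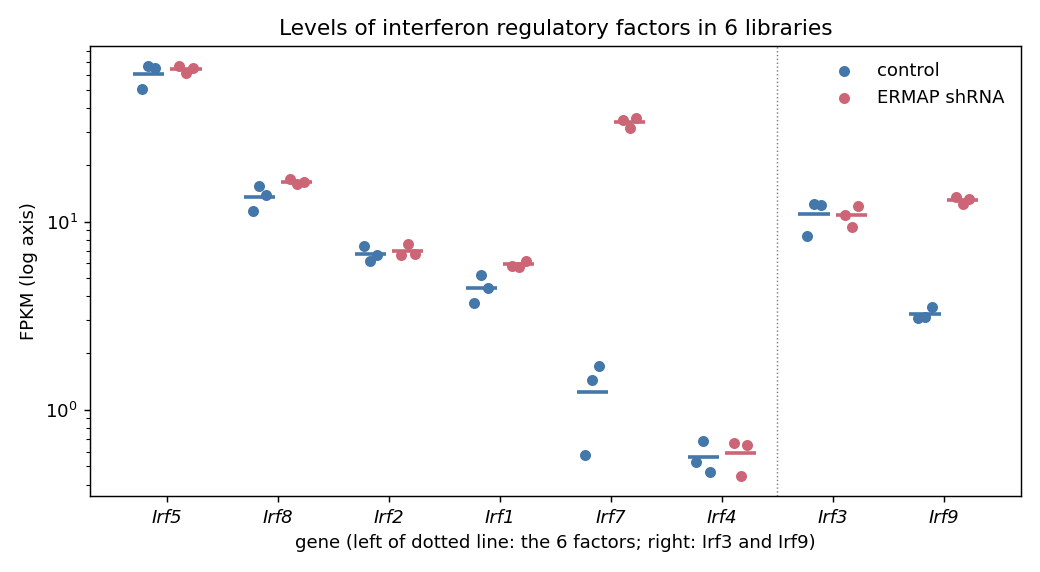
FPKM on a log axis for the 6 factors and, right of the dotted line, Irf3 and Irf9, with a point for each library and a bar for the group mean (n = 3). Irf7 moved from 1.24 to 33.7 FPKM, while Irf5, Irf8, Irf2, Irf1 and Irf4 were not called.

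Irf7 (ENSMUSG00000025498) sits on chromosome 7, minus strand, at 141262706 to 141266481 in the coordinates of mm10. It had 32, 91 and 98 counts in control and 1760, 1779 and 2019 counts under the shRNA label. Scaled to library size these were 2.21, 5.48 and 6.47 CPM against 131.5, 118.4 and 134.3 CPM. The lowest labelled library thus lay far above the highest control library, and control replicate 1 was the lowest of all. Mean levels were 4.72 ± 2.23 CPM (n = 3, SD) in control and 128.1 ± 8.51 CPM (n = 3, SD) under the shRNA label. Its log2 fold change came to 4.75 (SE 0.31, 95% interval 4.03 to 5.48, edgeR adjusted p = 0.000195), a 26.9-fold rise with an interval of 16.3 to 44.5. By log2 fold change Irf7 stood at place 13 of the 12491 tested genes. Without control replicate 1 the value was 4.42 (SE 0.11, edgeR adjusted p = 3.41e-18). Irf7 was called in all 17 alternative fits, and leaving out 1 library gave 4.42 to 5.04. The gene shares 45 bases with Phrf1 on the opposite strand, whose log2 fold change was 0.10 (edgeR adjusted p = 0.946).

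Irf1 (ENSMUSG00000018899) lies on the plus strand of chromosome 11 from 53770014 to 53778374. It had 14.8, 20.8 and 17.7 CPM in control and 23.2, 23.0 and 24.8 CPM under the shRNA label, from 214 to 372 counts per library. Each labelled library was above each control library. The difference did not pass the test over all genes, with a log2 fold change of 0.41 (SE 0.15, 95% interval 0.07 to 0.75, n = 3 per group, edgeR unadjusted p = 0.0239, adjusted p = 0.53). An unadjusted p under 0.05 was reached by 3.71% of all genes with higher and 3.04% with lower values. Without control replicate 1 it was 0.29 (SE 0.11, edgeR adjusted p = 0.164). Limma-voom with sample quality weights called Irf1 higher (0.39, adjusted p = 0.0167) along with 3.9% of all tested genes. That fit weighted control replicates 1, 2 and 3 at 0.0903, 0.772 and 3.26, so control replicate 3 counted most among the controls. The other 16 alternatives did not call Irf1 (adjusted p from 0.113 to 1).

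Irf2 (ENSMUSG00000031627), the partner that competes with Irf1 for binding sites, lies on the plus strand of chromosome 8 from 46739732 to 46847458. Its levels were 55.4, 46.3 and 49.4 CPM in control and 49.4, 56.1 and 50.1 CPM under the shRNA label. These ranges overlapped almost entirely. Its log2 fold change came to 0.04 (SE 0.11, 95% interval -0.21 to 0.30, edgeR adjusted p = 0.961), which bounds any change of Irf2 between 0.863-fold and 1.23-fold.

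Within each library, the ratio of Irf1 to Irf2 in FPKM was 0.497, 0.836 and 0.666 in control and 0.872, 0.763 and 0.919 under the shRNA label. The groups overlapped, since control replicate 2 lay above the second labelled library. The mean log2 ratio was -0.62 ± 0.38 (n = 3, SD) in control and -0.24 ± 0.14 (n = 3, SD) under the shRNA label, a difference of 0.38 (two-sided exact permutation test, p = 0.2). The difference was 0.19 without control replicate 1. With 3 against 3 libraries this test cannot give a p below 0.1.

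Irf5 (ENSMUSG00000029771) lies on the plus strand of chromosome 6 from 29526625 to 29541871 and was the most abundant member per length in both groups. It had 148.5, 195.0 and 191.7 CPM in control and 195.4, 179.8 and 189.8 CPM under the shRNA label. Control replicate 1 was low and the other 5 libraries lay close together. For the group difference the log2 value was 0.08 (SE 0.12, 95% interval -0.20 to 0.36, edgeR adjusted p = 0.949) and -0.04 without control replicate 1 (SE 0.06, adjusted p = 0.802). Its last part shares 1045 bases with Tnpo3 on the other strand, which is abundant and had a log2 fold change of -0.04 (edgeR adjusted p = 0.961). The counting program's strand setting is not given in the sources used here, so reads from that overlap cannot be assigned to either gene.

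Irf8 (ENSMUSG00000041515) lies on the plus strand of chromosome 8 from 120736358 to 120756694. Levels were 80.8, 110.4 and 98.2 CPM in control and 119.1, 111.9 and 114.6 CPM under the shRNA label. The groups did not overlap, but control replicate 2 and the second labelled library were nearly level. Between groups the log2 difference was 0.26 (SE 0.12, 95% interval -0.03 to 0.54, edgeR adjusted p = 0.825) and 0.14 without control replicate 1 (SE 0.07, adjusted p = 0.365). Limma-voom with sample quality weights called it higher by 0.21 (adjusted p = 0.0496), and no other alternative did (adjusted p from 0.224 to 1). A model named Gm20388 covers the whole Irf8 span on the same strand and had 0 counts in all libraries, and how reads common to both were handled is not given in the sources used here.

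Irf4 (ENSMUSG00000021356), on the plus strand of chromosome 13 from 30749226 to 30766976, was the scarcest member. It had 38, 56 and 35 counts in control and 44, 33 and 48 under the shRNA label, or 2.63, 3.37 and 2.31 CPM against 3.29, 2.20 and 3.19 CPM. The groups overlapped fully. At these counts the 95% interval of the log2 fold change ran from -0.55 to 0.66 (estimate 0.06, SE 0.26, edgeR adjusted p = 0.976), which is 0.684-fold to 1.58-fold.

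**Figure D2:**
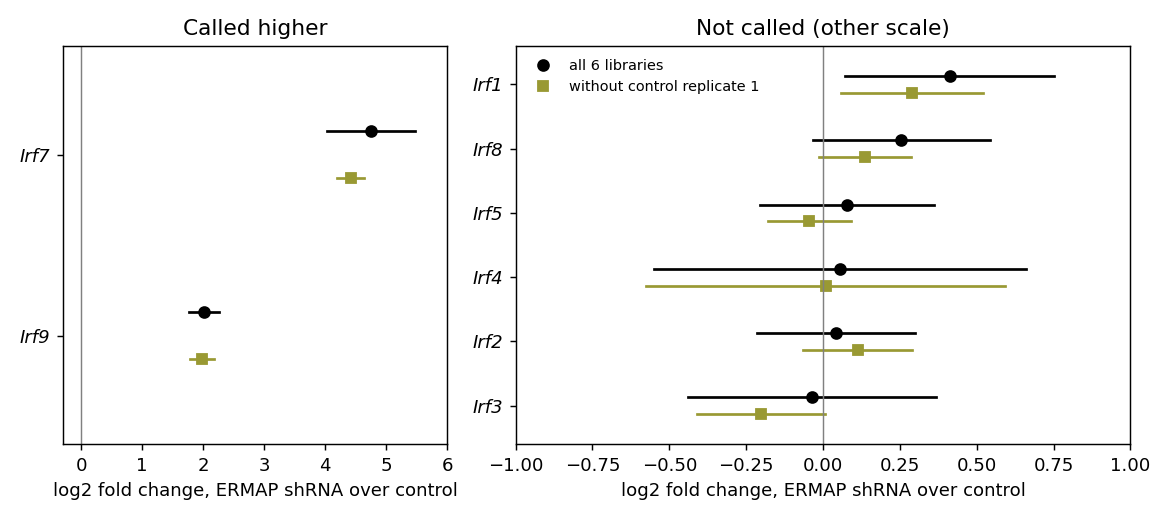
Log2 fold changes of libraries labelled ERMAP shRNA over control with 95% intervals from edgeR, with all 6 libraries (circles) and without control replicate 1 (squares), on different scales in the 2 panels. Irf7 and Irf9 lie at 4.75 and 2.01, while the other 6 genes lie between -0.20 and 0.41 in both fits.

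Compared per length, the order of the members in control was Irf5 (60.9 ± 9.03 FPKM, SD, n = 3), Irf8 (13.6 ± 2.12), Irf2 (6.74 ± 0.60), Irf1 (4.43 ± 0.75), Irf7 (1.24 ± 0.59) and Irf4 (0.560 ± 0.110). Library ranges of neighbours did not overlap except for Irf7 and Irf4, where control replicate 1 had 0.578 FPKM of Irf7 against at most 0.682 FPKM of Irf4. Under the shRNA label Irf7 came next after Irf5, with 33.7 ± 2.21 FPKM (n = 3, SD) against 64.4 ± 2.57 for Irf5 and 16.2 ± 0.47 for Irf8. Below them came Irf2 at 6.97 ± 0.51, Irf1 at 5.91 ± 0.25 and Irf4 at 0.586 ± 0.122, and no neighbours overlapped. Among all tested genes, Irf7 moved from the 16.8th to the 87.0th percentile of mean FPKM, while Irf5 stayed at the 93.4th and 93.5th.

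The deposited length of Irf7, 3776 bases, equals its whole genomic span, introns included. The other members had deposited lengths of 2905 to 7396 bases. Each member's deposited length exceeded its longest principal transcript in GENCODE vM21, which lowers its FPKM. The principal length was 1916 bases for Irf7 and 2241 for Irf5 (deposited 2905), 2847 for Irf8 (deposited 7055) and 2497 for Irf2 (deposited 7396). The deposited lengths thus lower Irf7 against Irf5 but raise it against Irf8 and Irf2. Rescaled to the principal lengths, a choice made after seeing the data, Irf7 had 66.5 ± 4.36 FPKM under the shRNA label (n = 3, SD). Irf5 had 83.5 ± 3.34 FPKM and Irf8 40.2 ± 1.16 FPKM (n = 3, SD). Irf7 kept its place, place 5 in control and place 2 under the shRNA label.

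Of all FPKM falling on the IRF genes measured, Irf7 took 0.677%, 1.29% and 1.57% in control and 22.2%, 21.6% and 22.8% under the shRNA label. The share of Irf5 went from 59.1% to 60.5% in control to 41.8% to 42.9%, with its own FPKM in the same range. The summed FPKM of the family was 85.5, 111.2 and 108.3 in control and 155.3, 144.3 and 155.6 under the shRNA label, so the sum was higher in each labelled library than in any control. These shares and sums rest on the deposited lengths, would change with the length used, and were not recomputed with principal transcripts.

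Irf3 and Irf9 are given for comparison. Irf9 rose from 17.5 ± 1.28 to 70.8 ± 3.18 CPM (n = 3, SD, log2 fold change 2.01, SE 0.11, edgeR adjusted p = 4.51e-05), and it stayed called in all 17 alternatives. Irf3, which is present before any stimulus and starts interferon-beta transcription, had 29.3, 43.2 and 42.2 CPM in control and 37.5, 32.4 and 42.0 CPM under the shRNA label (log2 fold change -0.04, SE 0.17, edgeR adjusted p = 0.978). Irf7 was scarcer than Irf3 in each control library and more abundant in each labelled one: the ratio of Irf7 to Irf3 in FPKM was 0.0688, 0.116 and 0.140 in control and 3.20, 3.33 and 2.92 under the shRNA label. The log2 ratio differed by 4.92 (exact permutation test, p = 0.1, the smallest 3 against 3 libraries can give). Irf8 over Irf5 gave 0.224, 0.233 and 0.211 in control and 0.251, 0.256 and 0.249 under the shRNA label, a log2 difference of 0.18 without overlap (exact permutation p = 0.1), and it was 0.18 without control replicate 1 as well.

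**Figure D3:**
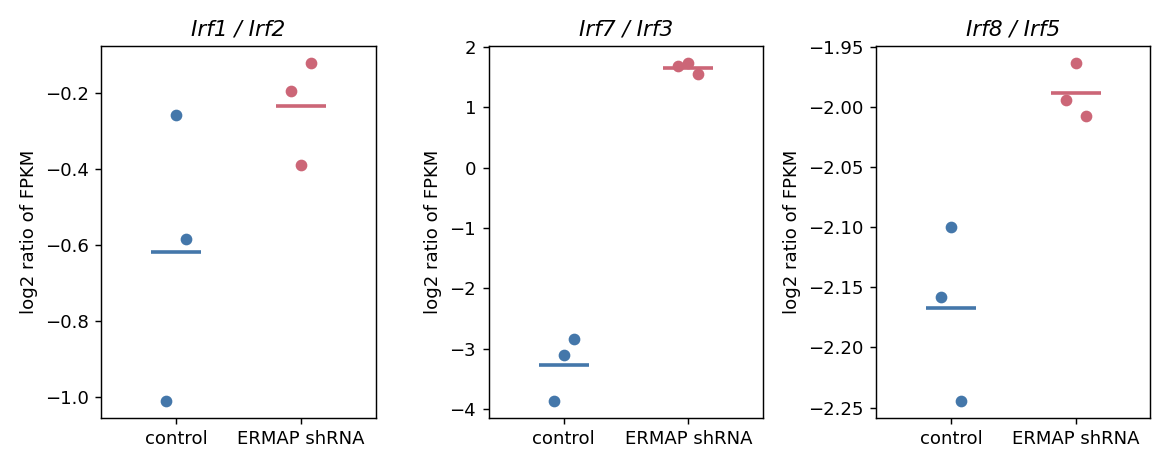
Log2 ratios of FPKM within each library for Irf1 to Irf2, Irf7 to Irf3 and Irf8 to Irf5, a point for each library and a bar for the mean (n = 3 per group, each panel on its own scale). The Irf7 to Irf3 groups are 4.92 apart, the Irf8 to Irf5 groups 0.18 apart without overlap, and the Irf1 to Irf2 groups overlap.

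Genes with the profile most like each member were sought by Pearson r of log2 CPM over the 6 libraries, among 9382 protein-coding genes with a mean of at least 5 CPM (9383 for Irf4). The points share library, depth and base composition, and with so many candidates and only 6 points high values are common. The closest to Irf7 were Helz2 (r = 0.998), Adar (r = 0.997), an enzyme that edits adenosines in double-stranded RNA, and Tor3a (r = 0.997). Each was called higher in the edgeR test, Helz2 with a log2 fold change of 1.87 (SE 0.16, adjusted p = 0.00083), Adar with 1.16 (SE 0.10, adjusted p = 0.00083) and Tor3a with 0.82 (SE 0.11, adjusted p = 0.0123). These genes were picked for likeness to Irf7 over the same 6 libraries. That choice largely fixed the outcome of the test, so their calls lend the rise of Irf7 no further support. Helz2 and Adar stayed called in all 17 alternatives. Tor3a lost its call without control replicate 3 or any labelled replicate (adjusted p up to 0.109).

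Irf1 ran closest to Erbb3, Nlrp3 (the sensor of an inflammasome) and Nfkbib (an NF-kB inhibitor), with r of 0.992 to 0.995, and Irf8 to Tmem229b, Lsg1 and Ltb (0.995 to 0.998). For Irf5 the closest were Tbc1d10a, Romo1 and Tmem115, each with r = 0.999, and 1000 genes exceeded 0.95. That number was 134 for Irf7, 196 for Irf8, 86 for Irf1, 52 for Irf2 and 4 for Irf4. The 3 genes closest to Irf5 have a transcript GC content of 60.3% to 60.6% and were lowest in control replicate 1. Irf2 was followed by Sucla2, Rsbn1 and Pwwp2a (0.987 to 0.989), and Irf4 by Chmp2a, Terf2ip and Gss (0.955 to 0.993). None of the genes closest to Irf1, Irf2, Irf4, Irf5 or Irf8 was called by the edgeR test, which their choice by likeness to members not called makes likely.

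Of 21 receptors, adaptors, kinases and other genes listed as acting upstream of the members, 20 were tested, 2 were called higher (Tlr3 and Stat2), 0 lower and 18 not. Over all tested genes 1.01% were called higher. The list had a median log2 fold change of 0.05 against -0.01 over all tested genes. Tlr3, the endosomal receptor for double-stranded RNA, had a log2 fold change of 1.45 (SE 0.25, edgeR adjusted p = 0.045) and Stat2, the partner of Irf9, 0.69 (SE 0.11, edgeR adjusted p = 0.0243). Unc93b1, which carries endosomal Toll-like receptors and had the highest FPKM of those listed, had 352.9 ± 55.9 CPM in control and 339.4 ± 14.9 CPM under the shRNA label (n = 3, SD, edgeR adjusted p = 0.956). Myd88, the adaptor that links these receptors to Irf5 and Irf7, Tbk1, which phosphorylates Irf3 and Irf7, and Tlr7 were picked after their values were seen, and their log2 fold changes were 0.03, -0.06 and -0.05. Without control replicate 1, where 2.67% of all genes were called higher, 4 of the 20 were, Tlr3, Trim21 and Stat2 among them, and DESeq2 also called 4 of 20. Tlr3 lost its call when any 1 library except control replicate 1 was left out (adjusted p up to 0.236), and Stat2 when control replicate 3 or 1 of the labelled libraries was left out (up to 0.212).

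Of 10 listed cofactors of the IRFs, 7 were tested and 0 were called by edgeR. With 1.01% of all tested genes called higher and 0.136% lower, 0 of 7 says little about the cofactors. Their median log2 fold change was 0.14 (all 7 above 0), or 0.02 without control replicate 1. In that fit, where 2.67% of all tested genes were called higher, Batf2 was called higher (with all 6 libraries, log2 fold change 1.71, SE 0.38, edgeR adjusted p = 0.119). Batf2, a partner of Irf1 in activated macrophages, was picked after its values were seen. Spi1, which encodes PU.1, the partner through which Irf4 and Irf8 bind composite sites, had 347.1 ± 84.0 CPM in control and 376.2 ± 20.1 CPM under the shRNA label (n = 3, SD, edgeR adjusted p = 0.949). Batf3 had 0 counts in all libraries, Spib 3 in all and Batf 2 in all. At an unadjusted p under 0.05, 1 of the 7, Batf2, was higher (edgeR), as were 3.71% of all tested genes. DESeq2, which called 1.19% of its genes higher and 0.369% lower, called 0 of the cofactors.

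Reported targets of the members were looked up as lists, which say nothing on binding here. Of 10 targets of Irf1, 5 were tested and only Tap1, which pumps peptides for MHC class I, was called by edgeR, with 26.7 ± 5.79 CPM in control and 53.7 ± 3.86 CPM under the shRNA label (n = 3, SD, log2 fold change 1.01, SE 0.17, edgeR adjusted p = 0.034). The median of the 5 was 0.59, and 1.01% of all tested genes were called higher. DESeq2, with 1.19% of its genes called higher, called 4 of the 7 it tested (Nos2, Psmb9, Tap1 and Socs1). Tap1 lost its call without control replicate 3 or any labelled replicate (adjusted p up to 0.216), and on log2(FPKM + 0.1) (limma adjusted p = 0.0559). Without control replicate 1, where 2.67% of all genes were called higher, 4 of 6 tested targets were (Nos2, Psmb9, Tap1 and Socs1). Nos2 and Gbp2, picked after their values were seen, fell below the filter when all 6 libraries were used. Nos2, the inducible nitric oxide synthase, had 0 counts in control and 9, 11 and 8 under the shRNA label. This is 9.93-fold higher when the controls together are set at a floor of 3 counts and the labelled counts are taken as exact. Gbp2, a guanylate-binding protein, had 1 count in control and 21 under the shRNA label, which gives 22.3 as the ratio (95% exact binomial interval 3.59 to 924). The floor covers counting error of the controls only, and the interval covers counting error but no other spread.

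Of the 3 targets listed for Irf2, Tlr3 was called, while Gsdmd, the pore-forming protein of pyroptosis, had 76.2 ± 12.4 and 80.5 ± 5.36 CPM (n = 3, SD, edgeR adjusted p = 0.949). The share called higher over all tested genes was 1.01%. Casp4 had a log2 fold change of 0.81 (SE 0.23, edgeR adjusted p = 0.316), and it was called higher without control replicate 1, with GC offsets and with sample quality weights. Those fits called 2.67%, 1.98% and 3.9% of all tested genes higher. Of 7 cytokine targets of Irf5 only Tnf passed the filter, and it rose from 27.6 ± 1.35 to 42.1 ± 2.62 CPM (n = 3, SD, log2 fold change 0.61, SE 0.11, edgeR adjusted p = 0.041). Tnf stayed called only when control replicate 1 was the library left out (adjusted p up to 0.308 for the other 5). Il6, Il12a and Il12b had 0 counts in all 6 libraries, which allows a level of up to 0.0335 CPM over the 6.

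Of 12 genes tied to Irf8, 11 were tested and 0 were called by edgeR, with a median log2 fold change of 0.04. As only 1.01% of all tested genes were called higher and 0.136% lower, 0 of 11 says little about this list. At an unadjusted p under 0.05 (edgeR), 1 was higher, Cybb, and 1 lower, Nfatc1. Of all tested genes 3.71% were higher and 3.04% lower at that threshold. DESeq2 called Nfatc1 lower, along with 0.369% of its genes. Cst3, cystatin C and the most abundant of them, had 1645 ± 239.8 CPM in control and 1602 ± 13.5 CPM under the shRNA label (n = 3, SD, edgeR adjusted p = 0.966). Cybb, the catalytic subunit of the phagocyte oxidase, had a log2 fold change of 0.40 (SE 0.14, edgeR adjusted p = 0.489) and Nfatc1, which Irf8 is known to hold down in osteoclast precursors, -0.53 (SE 0.10, edgeR adjusted p = 0.0527). Without control replicate 1 both passed, Cybb higher and Nfatc1 lower, where 2.67% of all tested genes were called higher and 2.19% lower. Naip2, Naip5 and Naip6 are close copies whose reads may be split. None of the 5 targets of Irf4 passed the filter: Chil3, Retnla and Prdm1 had 0 counts, and Arg1, with the most counts, had 8, 2 and 11 counts in control and 2, 1 and 12 under the shRNA label.

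**Figure D4:**
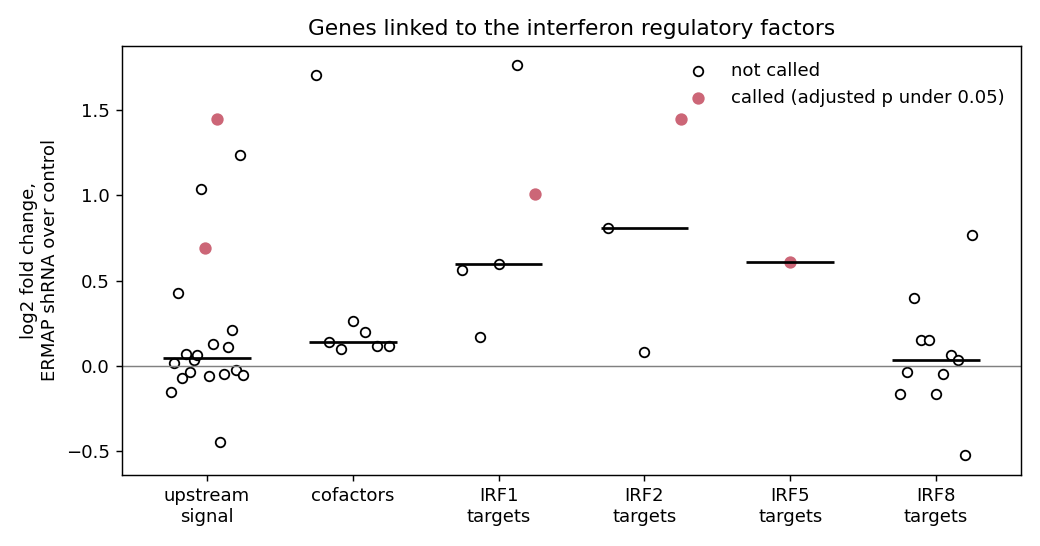
Log2 fold changes of the tested genes in 6 lists, a point for each gene, filled where called by edgeR, with a bar at the list median. Most upstream, cofactor and Irf8 target genes lie near 0, and the filled points are Tlr3 (in 2 lists), Stat2, Tap1 and Tnf.

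Type I interferon genes, the classical output of Irf7, had counts at or near 0. All 13 interferon-alpha genes named Ifna with a number in the table had 0 counts in all 6 libraries, where a count of 0 allows up to 0.0335 CPM each over the 89767428 counts. Ifnb1, interferon-beta, had 0 counts in each control library and 2, 0 and 5 under the shRNA label. It was seen in 2 of 3 labelled libraries and did not pass the filter.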

How the data were processed

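For each library the authors deposited gene counts as whole numbers and FPKM, with the mean FPKM of each group. HISAT2 and the build mm10 are named in the submitters' processing notes. Not given in the sources used here are the counting program, its strand setting, the annotation and any version. FPKM equals the count over gene length and a library constant, and the authors' group means equal the column means. Columns show a group and a number that could not be tied to 1 sample.

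Counts were tested with edgeR 4.0.16 (quasi-likelihood, TMM, filterByExpr minimum count 10, robust, Benjamini-Hochberg over 12491 genes) in R 4.3.3. The test was tested on simulated data. Alternatives used DESeq2 1.42.0, limma 3.58.1, other scalings and filters, FPKM with pseudocounts of 1 and 0.1, GC offsets, a replicate number as block, and each library omitted in turn. GC content came from the longest GENCODE vM21 transcript of each gene (98.3% of the 54409 shared identifiers have the same position). Libraries within a group differed by more than sampling noise, so none was counted as a copy. Members and lists were chosen with earlier results of these data known. Named genes are the IRF family, Ermap, the 3 genes closest to each member, and up to 4 called members and the most abundant member of each list. Trim21, Casp4, Cybb and Nfatc1 were named after their values were seen. Values of some listed genes are not reported here. Promoters came from RefSeq.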

Additional observations from a re-analysis of the deposited data

How the results depend on the processing

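Irf7 kept its direction and its call in all 17 alternatives, with log2 values from 3.99 on log2(FPKM + 1), where the added 1 is of the size of its control level, to 5.04 without control replicate 3. With sample quality weights, Irf1 (0.39, adjusted p = 0.0167) and Irf8 (0.21, adjusted p = 0.0496) became called, and the cause was not tested. Values near 0 changed sign without a call. Irf5 was -0.01 with sample quality weights (-0.0055) and with GC offsets (-0.0064), and -0.0444 to 0.14 leaving out 1 library. Irf2 ran from -0.0231 to 0.11 and Irf4 from -0.0565 to 0.22 when 1 library was left out. The ratios Irf1 to Irf2, Irf7 to Irf3 and Irf8 to Irf5 moved by less than the spread between replicates under a pseudocount of 0.1 FPKM and without any 1 library, and the place of Irf7 among the members did not depend on the gene length used.

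Against 126 genes higher and 17 lower, sample quality weights gave 487 and 430, GC offsets 247 and 170, and the replicate block 81 and 3. DESeq2 gave 58 lower and no filter on low counts 32 lower. Leaving out 1 library gave 73 to 342 higher and 3 to 280 lower, with 342 and 280 without control replicate 1 and 73 and 3 without labelled replicate 3. The cause was not tested. In the fit with sample quality weights, control replicate 1 had a weight of 0.0903. Same-numbered libraries correlated at -0.13, -0.278 and 0.178 in their deviations from group means, and not every library correlated best with its own number. With 3 libraries per group and control replicate 1 apart, these values cannot decide whether replicate numbers mark a shared culture or day. With the block, Irf7 was 4.81 (adjusted p = 0.00207), while Tap1, Tlr3, Tnf, Stat2 and Tor3a were not called. On log2(FPKM + 0.1), Tap1 (adjusted p = 0.0559) and Tlr3 (adjusted p = 0.0653) were not called. Depth limits Irf4, the interferon genes and the targets with few counts most.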
